A study of Homo sapiens with 16 samples.

Results

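The first response of T-47D cells to estradiol (E2) was taken from 4 of the 16 bulk RNA-seq libraries of the study, namely 2 libraries of cells treated with 10 nM E2 for 2 h and 2 libraries of the 0 h group. T-47D is a human line from a ductal carcinoma of the breast with luminal features and estrogen receptor alpha. All cells, controls included, were moved to phenol-red free RPMI-1640 medium with charcoal-stripped serum before treatment, for 3 days per the labels and for longer per the study's methods, which name vehicle-treated cells as the 0 h group. The other libraries were T-47D cells at 4 h and 8 h and Ishikawa endometrial adenocarcinoma cells at 0, 2, 4 and 8 h, also with 2 libraries per group. T-47D is a single line, and the labels do not say whether the 2 libraries of a group came from separate cultures, so p-values measure only the spread between these libraries. The question was which genes, and genes of which functions, moved first.

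Estrogen receptor alpha is a nuclear receptor that binds DNA once it holds E2, recruits coactivators and raises transcription of nearby and distant genes, often from enhancers that FOXA1 has opened. Its preferred DNA sequence, the estrogen response element, is an inverted repeat of the arm GGTCA. In breast cancer cells the best known early targets include GREB1, PGR (the progesterone receptor), MYC and CCND1 (cyclin D1), which tie the receptor to growth. Genes that fall are commonly described as losing coactivators or as being held back by the receptor and its corepressors.

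The canonical element was searched in the reference genome around the genes measured, since it is the sequence through which the receptor can reach them directly. A match was GGTCA, any 3 bases, then TGACC, a pattern that reads the same on both strands, within 5 kb on either side of the gene start in GENCODE on GRCh37 (hg19). It was present near 19 of the 757 genes called up whose start was known (2.51%), 6 of 677 called down (0.886%) and 116 of 13565 not called (0.855%), and near 0.940% of all genes tested. The same arms with 0, 1, 2, 4, 5 or 6 bases between them were found near 0.396% to 1.45% of genes called up. Among genes called up by more than 1 on the log2 scale, 2 of 139 held the element (1.44%). These shares are descriptions without a test, and a match does not show that the receptor was bound. Below are the elements of 6 called genes, chosen after their values were seen to show both directions and near and far positions, from hg19 on the strand of the gene, with the arms and spacer in capitals and 8 flanking bases on each side.
RNF223: actcaggtGGTCACAGTGACCtgtgtcat
MBOAT1: agctcttaGGTCAGTCTGACCaccctcca
NRIP1: gggcgtggGGTCAAAGTGACCcagagttc
TFAP2C: agacgcctGGTCACCGTGACCccgatttt
ZNF669: ccaaaagcGGTCATTCTGACCtcatccag
BMP4: tggggcgcGGTCAGGGTGACCctccaccc

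**Figure D1:**
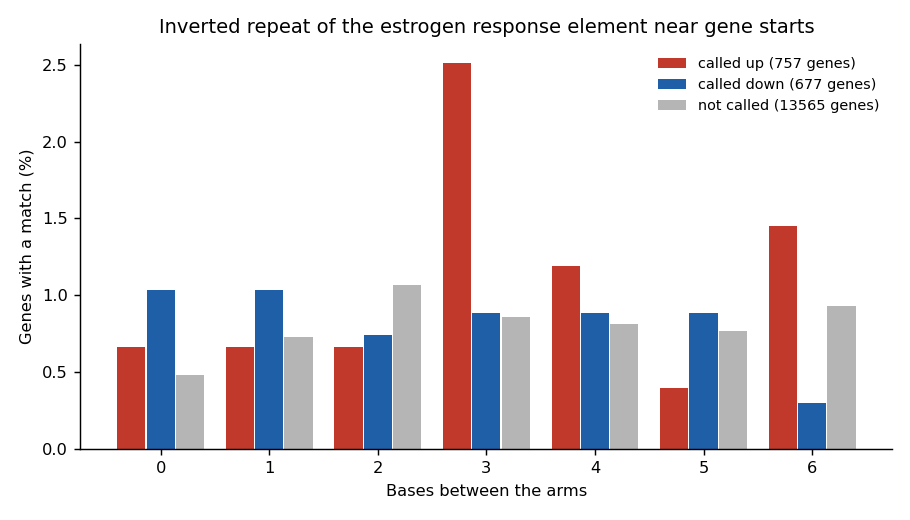
Percentage of genes with an inverted repeat of GGTCA within 5 kb of the gene start (y axis) by the number of bases between its arms (x axis), for genes called up (red), called down (blue) and not called (grey). With 3 bases between the arms the bar of the genes called up stands at 2.51%, against 0.886% and 0.855% in the other sets.

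The element of RNF223, which encodes a RING-finger protein, lies in an intron at chr1:1009198-1009210, 482 bases into the gene, and the gene went from 5.38 and 5.75 CPM in vehicle to 15.7 and 15.5 CPM with E2. MBOAT1, a lysophospholipid acyltransferase, holds its element in an intron at chr6:20210727-20210739, 1967 bases from the start, and rose from 14.4 and 15.7 CPM in vehicle to 27.8 and 30.1 CPM with E2. In NRIP1, a corepressor that binds the receptor itself, the element is intronic at chr21:16437962-16437974, 289 bases from the start, and the gene stood at 58.8 and 51.99 CPM in vehicle and 96.8 and 102 CPM with E2. The log2 fold changes of these 3 genes were 1.49, 0.95 and 0.84. Both E2 libraries lay above both vehicle libraries, as in all 764 genes called up. Groups did not overlap in 52.8% of all genes tested. TFAP2C, a transcription factor of luminal cells, has the element in a noncoding part of an exon at chr20:55204510-55204522, 154 bases from the start, and ZNF669, a zinc-finger protein, has it upstream at chr1:247267820-247267832. Their log2 fold changes were smaller, at 0.59 and 0.34, and the latter lost its call in 3 of the fits that left out a library, with the highest adjusted p (0.336) without the first 2 h library. BMP4, the gene of the 6 that fell, has its element 4895 bases upstream at chr14:54430368-54430380. In RefSeq promoters of GRCh38.p14, which span 250 bases before to 50 after the start, the element was found in 18 of 27305 (0.0659%). Of the 15594 genes tested, 11988 matched such a promoter, and 1 of these, the called gene ZNF669, held the element.

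The cells' labelled identity was checked against marker genes. Of 15 breast luminal markers, 14 were above 1 CPM (the count scaled to the size of its library) in all 4 libraries, and their summed level was 14743 to 18798 CPM. The exception was TFF1, at 0.742 and 0.582 CPM in vehicle and 1.08 and 1.22 CPM with E2. Basal and myoepithelial markers summed to 12.1 to 15.6 CPM with 5 of 8 tested, endometrial markers to 1.29 to 2.32 CPM with 3 of 6 at 0 counts in all 4 libraries, endothelial markers to 0.416 to 1.06 CPM and immune markers to 4.48 to 5.77 CPM. Stromal markers summed to 89.5 to 101 CPM. None of the 15 genes tested from these 5 lists passed in edgeR or in DESeq2, with 4 at an unadjusted p under 0.05. Over all genes tested, 3463 of 15594 had such a p in edgeR. These lists lay far below the luminal markers in summed level. In the lowest of 4 equal bins by 0 h level, 3.39% of genes were called, so no contrast between the lists is read from these counts. Of the luminal markers, 6 rose (XBP1, PGR, KRT18, KRT19, KRT8 and ESR1) and 3 fell (FOXA1, SPDEF and GATA3). These were 40% and 20% of the list, against 4.9% and 4.4% of all genes tested.

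Total counts were 44488088 and 41223813 for the vehicle libraries and 47817917 and 42602641 for the E2 libraries. In a principal component analysis of the 8 T-47D libraries, the first component, with 36.5% of the variance, ordered the time points 0, 2, 4 and 8 h, and replicates lay side by side. Of the genes tested, 108 lie in the pseudoautosomal regions or the major histocompatibility complex. Replicates of some of these disagreed by far more than those of other genes, as for C6orf48 with 1825 and 135 counts at 2 h, CUTA with 220 and 912 at 2 h, and GNL1 with 83 and 264 at 0 h. Their values carry that limit, and 10 of the 108 were called (9.26%, near the 9.3% of all genes tested). The strand setting of the counting is not given in the sources used here. Exons of 565 of the 1450 called genes overlap a gene on the opposite strand in GENCODE, against 6170 of the 15594 genes tested. Among those called and named here are MYC, TGM2, FZD4, FOXA1, PGR, KRT8 with KRT18 and HSPD1. Reads of such pairs may not have been told apart.

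Of 26364 genes in the table, 15594 had enough counts to be tested. At 2 h, 1450 of them (9.3%) passed an adjusted p of 0.05 in edgeR's quasi-likelihood test, with 764 up (4.9%) and 686 down (4.4%), and 3463 had an unadjusted p under 0.05. The counts of calls moved with the library left out: without the first 2 h library 816 genes passed and without the second 847, against 1006 without the second 0 h library and 1490 without the first. The up calls then numbered 506, 470, 578 and 903 and the down calls 310, 377, 428 and 587. In 1449 called genes both 2 h libraries lay on the same side of both 0 h libraries, which was so for 52.8% of all genes tested. The exception was LOC653513. Of the 192 called genes named in the text, 52 lost their call in at least 1 fit that left out a library.

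The rises were larger than the falls. Genes called up had a median log2 fold change of 0.40, with 142 beyond 1, 48 beyond 2 and 23 beyond 3, and genes called down a median of -0.32, with 21 beyond -1 and 3 beyond -2. Of the 163 called genes beyond 1 in size, 87.1% were up. The median over all genes tested was -0.01. Genes called down started from higher levels, with a median at 0 h of 62.3 CPM, against 30.3 CPM for genes called up and 20.7 CPM for all genes tested. Calls also depended on the level: with the genes split into 4 equal bins by their 0 h level, 3.39% of the lowest bin and 13.6% of the highest were called, and down calls ran from 0.564% to 8.64%. The summed level of the genes called up was 63893 CPM at 0 h and 84260 CPM at 2 h, and that of the genes called down was 109918 and 92748 CPM.

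**Figure D2:**
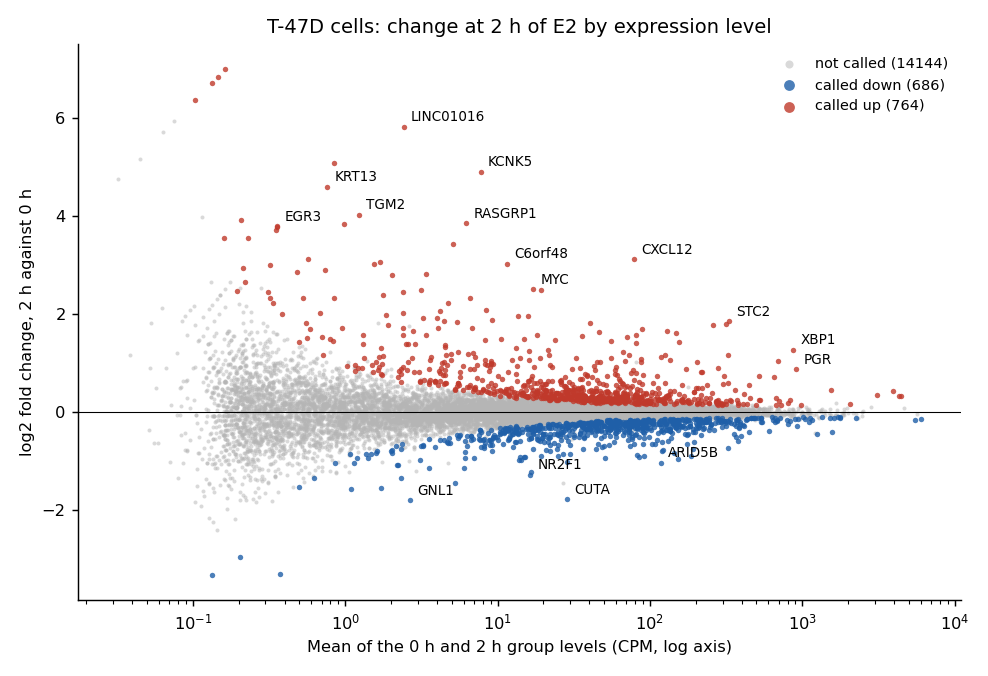
Log2 fold change at 2 h against 0 h (y axis) by the mean of the group levels in CPM (x axis, log scale) for the 15594 genes tested in T-47D cells, with 764 called up in red, 686 called down in blue and the rest in grey. Changes beyond 2 are nearly all rises, and the points above 6 at the left edge are genes with 0 counts at 0 h, whose fitted values depend on the prior count.

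Several of the 15 largest rises among genes with a mean of at least 50 counts were of genes below 1 CPM in vehicle, whereas CXCL12, MYB and MYC, also among the 15, started higher. The long noncoding gene LINC01016, at chr6:33835283-33864693, had 5 and 2 counts in vehicle and 211 and 220 with E2. The ratio of its summed levels was 58.2, with an exact 95% counting interval of 28.0 to 146. That interval treats counts as independent and would be too narrow if 1 fragment gave 2 counts. KCNK5, a potassium channel at chr6:39156747-39197251, went from 0.652 and 0.339 CPM in vehicle to 15.3 and 14.8 CPM with E2 (log2 change 4.90, SE 0.18, adjusted p = 2.44e-12). RASGRP1, an exchange factor that loads RAS proteins with GTP, rose from 0.900 and 0.703 CPM in vehicle to 11.9 and 11.5 CPM with E2 (log2 change 3.86, SE 0.17, adjusted p = 1.64e-11). In each of these genes the E2 libraries agreed closely with each other and were more than 10-fold above the vehicle libraries. The rule for the 15 required groups that do not overlap, which 52.8% of all genes tested also had. TGM2, a transglutaminase, stood at 0.135 and 0.145 CPM in vehicle and 2.37 and 2.25 CPM with E2 (log2 change 4.02, SE 0.31, adjusted p = 4.46e-08). The adrenergic receptor gene ADRA2A went from 1.17 and 0.558 CPM in vehicle to 9.37 and 9.34 CPM with E2 (log2 change 3.42, SE 0.20, adjusted p = 1.08e-09). Lower rises of the same kind were measured for CECR6 (3.06 on the log2 scale), PLCL1, an inactive relative of phospholipase C (2.81), NXPH3, a neurexophilin (2.79), the noncoding RNA LINC00673 (2.49) and the cancer-testis antigen XAGE2 (2.45). ARC, best known as an activity-induced gene of neurons, rose from 0.427 and 0.242 CPM in vehicle to 2.25 and 3.28 CPM with E2 (log2 change 3.02, SE 0.45, adjusted p = 0.000149). C6orf48, in the major histocompatibility complex, ranked among the largest rises through its first 2 h library alone: with E2 it stood at 37.98 and 3.17 CPM, and without that library its log2 fold change was 0.33 (adjusted p = 0.589).

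Among genes with levels high enough to be measured precisely, CXCL12 had the smallest p of all. CXCL12, at chr10:44865613-44881941, encodes the chemokine that binds CXCR4, and it stood at 17.98 and 14.5 CPM in vehicle and 135 and 147 CPM with E2 (log2 change 3.12, SE 0.07, adjusted p = 1.2e-14). STC2, a secreted stanniocalcin, went from 142 and 143 CPM in vehicle to 489 and 541 CPM with E2 (log2 change 1.85, SE 0.05, adjusted p = 3.81e-14). THBS1, the matrix glycoprotein thrombospondin, rose from 152 and 131 CPM in vehicle to 485 and 498 CPM with E2 (log2 change 1.80, SE 0.05, adjusted p = 1.86e-13). These genes were chosen by their p, so the gap between their groups was fixed by that choice. Groups did not overlap in 52.8% of all genes tested. The other genes of the 10 with the smallest p were GREB1, the formin FMN1 (1.65), the microtubule-associated MAP6D1 (1.61), the galactosyltransferase B4GALT1 (1.16), PFKFB3, a regulator of glycolysis (1.56), OSGIN1, an oxidative stress gene (1.52), and the transcription factor RUNX1 (1.80). PFKFB3 stood at 40.5 and 41.1 CPM in vehicle and 117 and 125 CPM with E2. OSGIN1 went from 37.6 and 35.1 CPM in vehicle to 104 and 105 CPM with E2, and its levels at 4 h, 44.8 and 47.8 CPM, were already closer to the vehicle level.

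**Figure D3:**
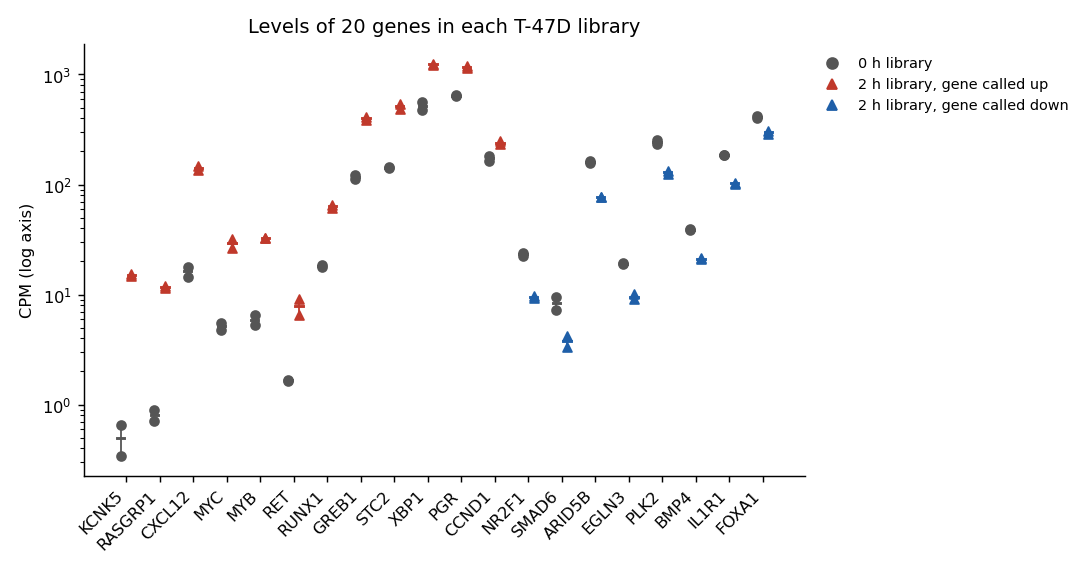
Levels in CPM (y axis, log scale) of 20 genes in the vehicle libraries (grey circles) and the 2 h E2 libraries (triangles, red for genes called up and blue for genes called down), with a bar at each group's mean of 2. The 20 were picked from called genes, of which 1449 of 1450 had groups that do not overlap, against 52.8% of all genes tested, so their separation was fixed by that choice. KCNK5 shows the widest gap, and its 0 h libraries lie below 1 CPM and its 2 h libraries near 15 CPM.

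Of 18 classical E2 targets, 15 rose and none fell, with a median log2 fold change of 0.81 over the list. The list was drawn up from what is known of breast cancer cells, but with earlier results of these data known. Its count is therefore a description and no independent support. Over all genes tested 4.9% rose. GREB1, a cofactor of the receptor, rose from 112 and 122 CPM in vehicle to 388 and 413 CPM with E2 (log2 change 1.78, SE 0.05, adjusted p = 8.08e-14). PGR, at chr11:100900355-101000544, stood at 644 and 642 CPM in vehicle and 1154 and 1200.3 CPM with E2 (log2 change 0.87, SE 0.04, adjusted p = 1.93e-11). XBP1, a transcription factor of the secretory pathway, went from 557 and 471 CPM in vehicle to 1219 and 1255 CPM with E2 (log2 change 1.27, SE 0.05, adjusted p = 1.08e-11). These 3 genes were already abundant in vehicle. They were higher in both E2 libraries, as were all 764 genes called up. The receptor tyrosine kinase RET rose from 1.69 and 1.65 CPM in vehicle to 6.56 and 9.03 CPM with E2 (log2 change 2.22, SE 0.18, adjusted p = 6.55e-08), and the transcription factor MYB stood at 6.50 and 5.24 CPM in vehicle and 32.7 and 32.99 CPM with E2 (log2 change 2.48, SE 0.09, adjusted p = 2.44e-12). SIAH2, a ubiquitin ligase, rose by 1.12 on the log2 scale, PDZK1, a scaffold protein, by 1.04, FHL2, a LIM-domain cofactor, by 1.02, and SLC9A3R1, another scaffold, by 0.72. Smaller rises were those of IGFBP4 (0.58), the carbonic anhydrase CA12 (0.55), cyclin D1 (CCND1, 0.48), the adenylyl cyclase ADCY9 (0.46) and the protease cathepsin D (CTSD, 0.14). The last of these lost its call when any of 3 libraries was left out, with an adjusted p of up to 0.218. The other 3 did not pass: the trefoil factors TFF1 (0.79, adjusted p = 0.141) and TFF3 (0.06, adjusted p = 0.741), and the growth factor AREG (0.63, adjusted p = 0.0623), which stood at 2.83 and 2.55 CPM in vehicle and 4.08 and 4.25 CPM with E2. AREG passed in 8 other fits, among them DESeq2 (adjusted p = 0.0448), the fit with no filter on low counts (0.00118) and the fit of only the 0 h and 2 h libraries (0.0141), and TFF1 passed with no filter (0.0427).

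Immediate-early transcription factors moved in both directions, with 5 of 17 up and 5 down (29.4% each, against 4.9% and 4.4% of all genes tested). FOSL2, a FOS-family partner of JUN, went from 23.96 and 24.9 CPM in vehicle to 44.5 and 45.96 CPM with E2 (log2 change 0.89, SE 0.07, adjusted p = 2.87e-08). EGR3 had 2 counts in each vehicle library and 45 and 17 in the E2 libraries, a ratio of 14.6 with a counting interval of 5.44 to 55.4, and DESeq2 gave it no adjusted p. IER3 (0.86), MAFF (0.75) and ATF3 (0.37) also rose. In contrast, JUNB fell from 38.7 and 36.7 CPM in vehicle to 25.1 and 27.2 CPM with E2 (log2 change -0.53, SE 0.07, adjusted p = 3.74e-05). IER2 fell by 0.47 on the log2 scale, IER5 by 0.31 and JUN by 0.29. EGR1 stood at 1.24 and 1.07 CPM in vehicle and 0.666 and 0.446 CPM with E2 (log2 change -1.04, SE 0.31, adjusted p = 0.0401), so EGR1 and EGR3, which share a DNA-binding motif, moved in opposite directions. EGR1 lost its call with DESeq2 (adjusted p = 0.0736), with the replicate block (0.0523) and without any 1 of the 4 libraries of the contrast. MAFF lost it with DESeq2 (adjusted p = 0.0800), so that with EGR3 also left without an adjusted p the up calls of the list numbered 3 there. Without the second 2 h library they also numbered 3. FOS, the partner of JUN in AP-1, stood at 1.28 and 0.655 CPM in vehicle and 1.14 and 1.67 CPM with E2 (adjusted p = 0.337), and FOSB at 1.33 and 1.09 CPM in vehicle and 1.29 and 1.36 CPM with E2 (adjusted p = 0.827).

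MYC, a transcription factor of growth, rose. So did 21 of 39 genes that build ribosomes (53.8%, against 4.9% of all genes tested), with no call among the ribosomal proteins. MYC, at chr8:128747680-128755197, went from 5.56 and 4.73 CPM in vehicle to 26.5 and 32.1 CPM with E2 (log2 change 2.51, SE 0.11, adjusted p = 1.64e-11). Its partner MAX rose by 0.25, and none of the other 11 members of the MYC network list passed in either direction. The other called member of the ribosome biogenesis list fell, and the median log2 fold change of the list was 0.19. RRS1, needed for assembly of the large subunit, rose from 28.2 and 27.3 CPM in vehicle to 45.8 and 48.6 CPM with E2 (log2 change 0.77, SE 0.06, adjusted p = 3.28e-08). POLR1B, a core subunit of RNA polymerase I, stood at 35.3 and 39.3 CPM in vehicle and 54.96 and 56.3 CPM with E2 (log2 change 0.58, SE 0.06, adjusted p = 1.51e-06). WDR43 (0.67), URB2 (0.65), NOP16 (0.57) and POLR1C (0.42), which act in the nucleolus or in polymerases I and III, rose to a like extent, and nucleolin (NCL) by 0.13. The gene that fell was UBTF, an activator of polymerase I (-0.16, adjusted p = 0.0345), which lost its call without any 1 of the 4 libraries. Without the second 0 h library, 13 of the 39 rose. None of 52 cytoplasmic ribosomal protein genes and none of 36 respiratory chain genes passed in edgeR or in DESeq2, with 3 of each at an unadjusted p under 0.05, and their median log2 fold changes were -0.02 and -0.04. With no filter on low counts, 1 of the ribosomal protein genes rose in edgeR.

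No call was made among genes of DNA synthesis or mitosis at 2 h in the main edgeR fit. None of 33 DNA replication genes and none of 28 mitosis genes passed there or in DESeq2, with 3 and 4 at an unadjusted p under 0.05 and with log2 fold changes between -0.11 and 0.15 and between -0.15 and 0.22. In other edgeR fits, 1 DNA replication gene rose with no filter on low counts and 1 with only the 0 h and 2 h libraries fitted. Rises in that list were also called without the first 0 h library. Among 19 G1 cyclins, kinases and E2F factors, 3 rose: CCND1, which went from 165 and 179.9 CPM in vehicle to 232 and 249 CPM with E2 (log2 change 0.48, SE 0.05, adjusted p = 1.79e-06), the phosphatase CDC25A (0.30) and E2F6 (0.50), a repressive member of its family. Of those 19 genes, the 3 that rose made up 15.8%, against 4.9% of all genes tested. Of 20 CDK inhibitors and antiproliferative genes, 4 fell and 2 rose (20% and 10%, against 4.4% and 4.9% of all genes tested). CCNG2, an atypical cyclin of quiescent cells, fell from 132 and 134 CPM in vehicle to 91.4 and 86.3 CPM with E2 (log2 change -0.58, SE 0.05, adjusted p = 5.54e-07). BTG1 stood at 424 and 447 CPM in vehicle and 301 and 307 CPM with E2 (log2 change -0.52, SE 0.05, adjusted p = 3.9e-07). CDKN2B fell by 0.32 and CDKN2A by 0.20 on the log2 scale, whereas TOB1, a relative of BTG1, went from 235 and 231 CPM in vehicle to 383 and 385 CPM with E2 (log2 change 0.72, SE 0.04, adjusted p = 1.16e-09) and the translation inhibitor PDCD4 rose by 0.22. CDKN2A lost its call with the replicate block (adjusted p = 0.0506) and in 6 of the fits that left out a library. Of 17 BCL2 family genes, 1 (5.88%, against 9.3% of all genes tested) passed in edgeR, the death-promoting BIK (-0.70, adjusted p = 0.032). Its call was lost without the first 0 h library or either 2 h library, and 2 genes of the list fell with DESeq2.

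Among genes that restrain MAP kinase signalling, falls outnumbered rises, with 43.8% called down and 6.25% up, against 4.4% and 4.9% of all genes tested. Of 16 MAPK feedback genes, 7 fell and 1 rose, with a median log2 fold change of -0.28, although without the second 0 h library 4 fell and without the first 2 h library 3. The ERK phosphatase DUSP5 fell from 20.5 and 19.4 CPM in vehicle to 10.3 and 10.6 CPM with E2 (log2 change -0.93, SE 0.09, adjusted p = 5.05e-07). SPRY1, a Sprouty inhibitor of receptor signalling, stood at 5.60 and 5.87 CPM in vehicle and 3.50 and 3.82 CPM with E2 (log2 change -0.65, SE 0.15, adjusted p = 0.0104). DUSP10 fell by 0.57 on the log2 scale, DUSP1 by 0.39, SPRED2 by 0.36, DUSP8 by 0.35 and ERRFI1, an inhibitor of the EGF receptor, by 0.32. PHLDA1 was the member that rose (0.45). Of 17 regulators of RAS-family proteins, 4 rose and 2 fell (23.5% and 11.8%, against 4.9% and 4.4% of all genes tested). Beside RASGRP1, RAPGEFL1 went from 21.3 and 24.2 CPM in vehicle to 68.8 and 71.04 CPM with E2 (log2 change 1.62, SE 0.07, adjusted p = 7.49e-12), and RERG and RASA3 rose by 0.51 and 0.29, while RASL11B fell by 0.48 and NF1 by 0.14. The call of NF1 was lost with RLE scaling (adjusted p = 0.0511) and in 9 other fits.

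Genes of growth factor pathways were called in both directions. In the EGF family, 1 of 11 genes rose and 2 fell (9.09% and 18.2%, against 4.9% and 4.4% of all genes tested). TGFA, a ligand of the EGF receptor, rose from 13.1 and 11.9 CPM in vehicle to 30.1 and 30.4 CPM with E2 (log2 change 1.27, SE 0.08, adjusted p = 1.23e-09). The receptors ERBB2 and ERBB3 fell by 0.20 and 0.25 on the log2 scale, and ERBB3 stood at 869 and 884 CPM in vehicle and 721 and 749.5 CPM with E2. In the IGF axis, 3 of 12 rose and 1 fell (25% and 8.33%, against 4.9% and 4.4% of all genes tested). The adaptor IRS2 (0.62) and the binding proteins IGFBP4 and IGFBP5 (0.16) rose, and IGFBP2 fell by 0.14. Without the second 0 h library 1 gene of the list rose, and the call of IGFBP2 was lost without any 1 of the 4 libraries, with no filter and with at least 10 counts in every library. Of 18 prolactin, STAT and SOCS genes, 4 rose and 1 fell (22.2% and 5.56%, against 4.9% and 4.4% of all genes tested). CISH, a feedback inhibitor of cytokine receptors, went from 10.8 and 8.20 CPM in vehicle to 21.9 and 23.3 CPM with E2 (log2 change 1.24, SE 0.11, adjusted p = 2.34e-07). The kinases JAK2 and JAK1 rose by 0.66 and 0.54, SOCS4 by 0.33, and SOCS1 fell from 0.652 and 0.824 CPM in vehicle to 0.291 and 0.211 CPM with E2 (log2 change -1.53, SE 0.43, adjusted p = 0.0307), a call lost without any 1 of the 4 libraries.

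Chemokine genes and cytokine receptors split, with 3 of 12 up and 3 down (25% each, against 4.9% and 4.4% of all genes tested). Opposite to its ligand CXCL12, the receptor gene CXCR4 stood at 3.13 and 2.91 CPM in vehicle and 1.17 and 1.67 CPM with E2 (log2 change -1.10, SE 0.21, adjusted p = 0.00204). It lost its call without the first 2 h library (-0.85, adjusted p = 0.0619). IL6ST, the shared signalling chain of the interleukin-6 family, went from 203 and 191 CPM in vehicle to 358 and 370.4 CPM with E2 (log2 change 0.89, SE 0.06, adjusted p = 2.87e-09). IL1R1, the receptor for interleukin-1, fell from 185 and 184 CPM in vehicle to 103 and 102 CPM with E2 (log2 change -0.86, SE 0.05, adjusted p = 2.36e-10). IL17RB rose by 0.41, and the chemokine CCL2 fell by 1.10 but missed the threshold without the second 0 h library (adjusted p = 0.0538). Of 21 interferon-stimulated genes, IRF1 (-0.99) and DDX58 (-0.29) fell and none rose, a share of 9.52%, near that of all genes tested (9.3%), and the median of the list was -0.29. Both calls were lost without the second 2 h library (adjusted p = 0.105 and 0.137), and 6 genes of the list fell without the first 0 h library.

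The 15 largest falls among genes with a mean of at least 50 counts lay between -1.82 and -0.98 on the log2 scale. RUNX1T1, a corepressor, stood at 2.11 and 2.98 CPM in vehicle and 0.708 and 1.03 CPM with E2 (log2 change -1.55, SE 0.25, adjusted p = 0.000322). NR2F1, an orphan nuclear receptor at chr5:92918928-92930317, went from 23.8 and 22.5 CPM in vehicle to 9.24 and 9.69 CPM with E2 (log2 change -1.29, SE 0.10, adjusted p = 3.66e-08). The zinc-finger gene ZNF608 fell from 21.9 and 24.7 CPM in vehicle to 10.2 and 9.62 CPM with E2 (log2 change -1.23, SE 0.09, adjusted p = 2.72e-08). In each, both E2 libraries lay below both vehicle libraries, which the rule for the 15 required. Groups did not overlap in 52.8% of all genes tested. TWIST1, a transcription factor known for its part in the epithelial-to-mesenchymal transition, fell by 1.14 on the log2 scale, SHISA2, an inhibitor of WNT and FGF receptor maturation, by 1.03, and EGLN3, an oxygen-sensing prolyl hydroxylase, by 0.98. GNL1 (-1.82), CUTA (-1.79) and PLCXD1 (-1.45) belong to the regions in which replicates disagreed. GNL1 and CUTA did not pass with DESeq2 (adjusted p = 0.0929 and 0.110). The call of TOB2P1, a pseudogene with 50 or more counts on average (-1.05), was lost without any 1 of the 4 libraries.

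The falls with the smallest p were found at higher levels. ARID5B, a chromatin-binding protein at chr10:63661443-63856703, stood at 156 and 162 CPM in vehicle and 77.3 and 77 CPM with E2 (log2 change -1.04, SE 0.05, adjusted p = 4.84e-11). PLK2, a kinase of the Polo family, fell from 253 and 232 CPM in vehicle to 126 and 133 CPM with E2 (log2 change -0.91, SE 0.05, adjusted p = 5.08e-10). In both the drop was close to the size of 1 on the log2 scale, and replicates lay close together. ENC1 (-0.89), SOX13 (-0.76), CITED2, a coregulator that competes for CBP and p300 (-0.75), and ZFP36L2, which speeds the decay of AU-rich mRNAs (-0.79), were others of the 10 falls with the smallest p, as were IL1R1, FZD4 and BAMBI.

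Among TGF-beta and BMP genes, 12 of 33 fell (36.4%, against 4.4% of all genes tested) and none rose. The median log2 fold change of the list was -0.21. The ligand BMP4, at chr14:54416454-54425479, stood at 39.2 and 38.6 CPM in vehicle and 21.3 and 21.2 CPM with E2 (log2 change -0.87, SE 0.07, adjusted p = 4.07e-08). Its receptor BMPR1B went from 7.76 and 7.91 CPM in vehicle to 4.25 and 4.67 CPM with E2 (log2 change -0.81, SE 0.13, adjusted p = 0.000229). The ligands TGFB2, TGFB3 and INHBB fell by 0.48, 0.37 and 0.35 on the log2 scale and the receptor ACVR1B by 0.21. Inhibitors and targets of these pathways were also among the 12. The inhibitory SMAD6 fell from 7.20 and 9.55 CPM in vehicle to 3.33 and 4.20 CPM with E2 (log2 change -1.16, SE 0.16, adjusted p = 6.65e-05), and BAMBI, a pseudoreceptor that blocks signalling, stood at 154 and 149 CPM in vehicle and 85.5 and 88.5 CPM with E2 (log2 change -0.80, SE 0.05, adjusted p = 6.9e-10). SMAD3, the signal-carrying SMAD, fell by 0.62. The target genes ID1, ID2 and ID3, inhibitors of helix-loop-helix factors, fell by 0.68, 0.79 and 0.54, and ID1 went from 63.2 and 69.6 CPM in vehicle to 40.4 and 42.2 CPM with E2.

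In the WNT and Notch lists, too, calls down outnumbered calls up. Of the Notch genes, 12.5% fell and 6.25% rose, against 4.4% and 4.9% of all genes tested. Of 31 WNT genes, 7 fell and 1 rose (22.6% and 3.23%). The median log2 fold change of the WNT list was -0.23. The receptor FZD4 fell from 120.1 and 119 CPM in vehicle to 63.9 and 64.1 CPM with E2 (log2 change -0.90, SE 0.05, adjusted p = 4.72e-10), and it overlaps PRSS23 on the opposite strand. RNF43, a ubiquitin ligase that removes WNT receptors, stood at 24.4 and 25.6 CPM in vehicle and 12.5 and 14.1 CPM with E2 (log2 change -0.91, SE 0.08, adjusted p = 5.05e-07), whereas its relative ZNRF3 was the member that rose (0.41), a call lost without the second 2 h library. The secreted inhibitor DKK1 (-0.76) and the transcription factor TCF7L2 (-0.51) fell. Of 16 Notch genes, the effector HES1 went from 44.01 and 47.8 CPM in vehicle to 27.7 and 26.3 CPM with E2 (log2 change -0.77, SE 0.07, adjusted p = 2.82e-07), the receptor NOTCH3 fell by 0.28, and HEY2, another effector, rose from 2.16 and 1.65 CPM in vehicle to 5.97 and 7.93 CPM with E2 (log2 change 1.86, SE 0.18, adjusted p = 9.46e-07).

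Among 16 steroid receptors and cochaperones, 3 rose and 2 fell (18.75% and 12.5%, against 4.9% and 4.4% of all genes tested). ESR1, the gene of estrogen receptor alpha at chr6:151977826-152450754, rose from 166 and 163 CPM in vehicle to 186 and 191 CPM with E2 (log2 change 0.20, SE 0.04, adjusted p = 0.006). It lost its call without the second 2 h library (adjusted p = 0.0921). FKBP4, a cochaperone of steroid receptors, stood at 496 and 487 CPM in vehicle and 804 and 804 CPM with E2 (log2 change 0.71, SE 0.03, adjusted p = 3.7e-11). NR3C1, the glucocorticoid receptor, fell by 0.42 on the log2 scale. Of 21 receptor coregulators, NRIP1 rose and NCOA3, a coactivator, fell by 0.30, a share of 9.52%, near the 9.3% of all genes tested. Of 13 retinoid genes, 2 rose and 2 fell (15.4% each, against 4.9% and 4.4% of all genes tested). The receptor RARA rose from 73.5 and 81.02 CPM in vehicle to 167 and 179.6 CPM with E2 (log2 change 1.16, SE 0.06, adjusted p = 6.78e-11). The reductase DHRS3 rose by 0.46, and the receptors RARG and RXRA fell by 0.37 and 0.32. Without the second 0 h or the second 2 h library, 1 retinoid gene rose.

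Of 17 transcription factors of the luminal lineage, 5 rose and 6 fell (29.4% and 35.3%, against 4.9% and 4.4% of all genes tested). RUNX1, on chromosome 21, rose from 17.7 and 18.6 CPM in vehicle to 61 and 65.7 CPM with E2 (log2 change 1.80, SE 0.06, adjusted p = 1.67e-12). Besides MYB, the others that rose were TFAP2C (0.59), GRHL2 (0.56) and EHF (0.24). FOXA1 stood at 420.2 and 403 CPM in vehicle and 289 and 309 CPM with E2 (log2 change -0.46, SE 0.05, adjusted p = 1.14e-06). TFAP2A went from 209 and 219 CPM in vehicle to 129 and 140.2 CPM with E2 (log2 change -0.67, SE 0.05, adjusted p = 2.36e-08), so the AP-2 factors TFAP2A and TFAP2C moved in opposite directions. MSX2 (-0.65), TRPS1 (-0.46), SPDEF (-0.21) and GATA3 (-0.20) fell, with TRPS1 at 1473 and 1436 CPM in vehicle and 1038 and 1077 CPM with E2. In the KLF family, 1 of 15 rose (KLF10, 0.63) and 3 fell (KLF3, KLF8 and KLF6, by 0.63, 0.38 and 0.32). These were 6.67% and 20% of the list, against 4.9% and 4.4% of all genes tested.

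Of 15 keratins, 5 rose and 3 fell (33.3% and 20%, against 4.9% and 4.4% of all genes tested). KRT13, a keratin of stratified epithelium, had 3 and 2 counts in vehicle and 68 and 65 with E2, a ratio of 25.1 with a counting interval of 10.5 to 78.7. KRT15 stood at 7.27 and 8.44 CPM in vehicle and 22.9 and 20.8 CPM with E2 (log2 change 1.48, SE 0.12, adjusted p = 8.92e-08). The abundant luminal keratins KRT8, KRT18 and KRT19 rose by 0.33, 0.43 and 0.43, and KRT80, KRT7 and KRT23 fell by 0.26, 0.21 and 0.16, with 1 fall left without the first 0 h library or either 2 h library.

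Among chaperones, 6 of 18 heat shock genes rose (33.3%, against 4.9% of all genes tested) and none fell. HSPB8, a small heat shock protein, went from 136 and 137 CPM in vehicle to 272 and 275 CPM with E2 (log2 change 1.00, SE 0.04, adjusted p = 1.05e-11), its cochaperone BAG3 rose by 0.50, and HSPH1, HSPA8, DNAJA1 and HSPD1 by 0.34, 0.31, 0.24 and 0.16. In the endoplasmic reticulum list, XBP1 was the single call among 20 genes (5%, against 9.3% of all genes tested). The ATF4 and amino acid list held opposite moves, with 2 up and 4 down of 21. These were 9.52% and 19% of the list, against 4.9% and 4.4% of all genes tested. SLC7A5, the large neutral amino acid transporter, rose from 446 and 468 CPM in vehicle to 901 and 969 CPM with E2 (log2 change 1.03, SE 0.04, adjusted p = 5.55e-12). Its partner SLC3A2 rose by 0.24. The stress gene DDIT4, an inhibitor of mTORC1, fell from 119 and 105 CPM in vehicle to 60.04 and 57.2 CPM with E2 (-0.93 on the log2 scale). TRIB3 fell from 93.2 and 89.9 CPM in vehicle to 61.2 and 62.6 CPM with E2 (-0.57), and SESN2 and SLC38A2 fell by 0.46 and 0.30. Of 12 polyamine genes, AMD1 was the single call (8.33%, against 9.3% of all genes tested). AMD1, which makes the aminopropyl donor, went from 51.5 and 49.5 CPM in vehicle to 76.7 and 78.4 CPM with E2 (log2 change 0.62, SE 0.05, adjusted p = 2.06e-07). Cholesterol and fatty acid synthesis showed 3 small rises (IDI1, CYP51A1 and HMGCS1, 0.18, 0.17 and 0.15) and 2 small falls, SREBF1 (-0.23) among them, in 23 genes. Rises made up 13% of that list and falls 8.7%, against 4.9% and 4.4% of all genes tested. The 3 rises were each lost without the second 0 h library or either 2 h library, and 1 remained called with the replicate block or without the first 0 h library. PEG10, whose enhancers the study targeted in Ishikawa cells, is treated there as a late-responding gene. In T-47D cells PEG10 stood at 236 and 212 CPM in vehicle and 226 and 218 CPM with 2 h of E2 (adjusted p = 0.924).

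**Figure D4:**
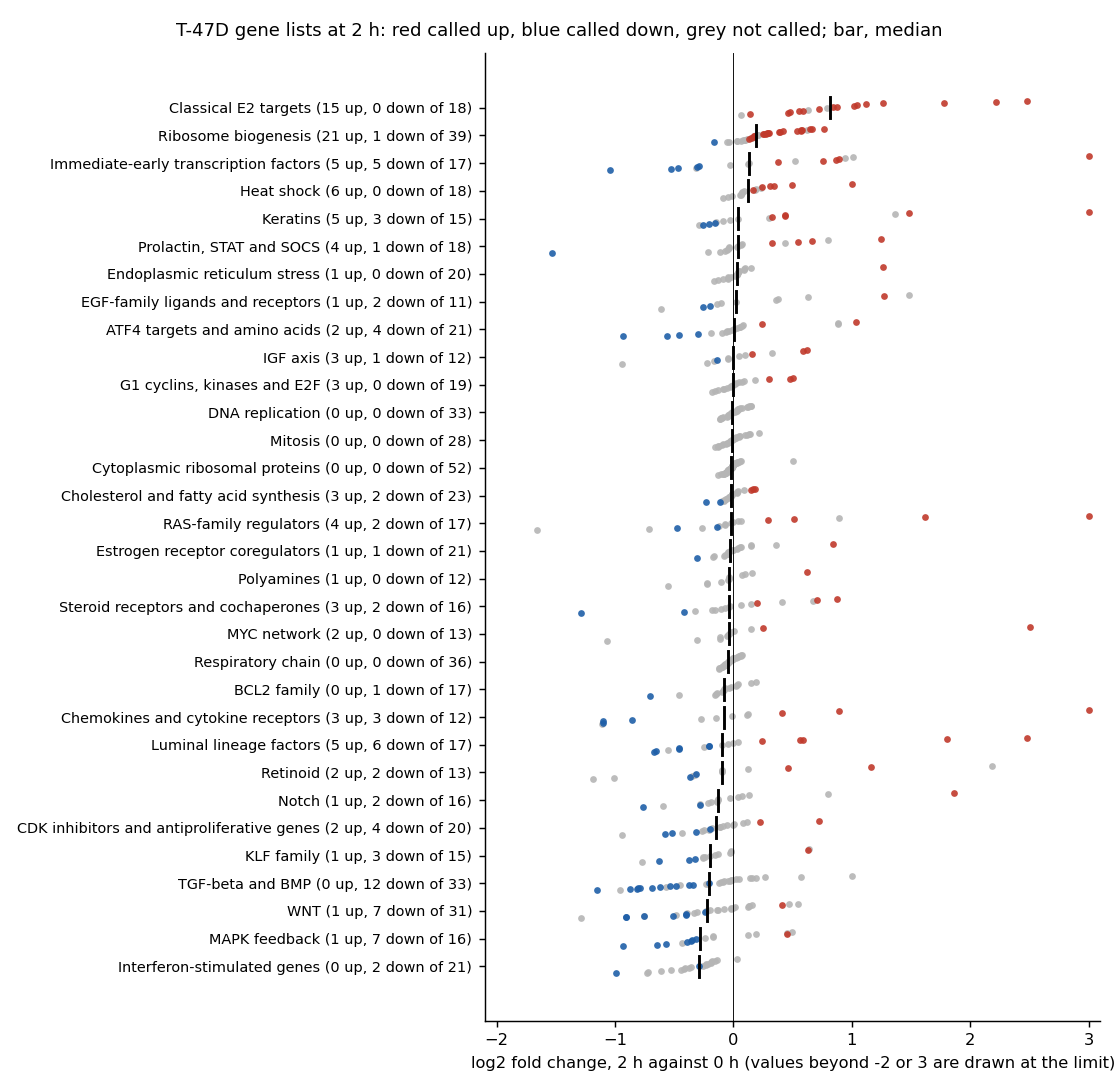
Log2 fold change at 2 h (x axis) of the tested members of 32 gene lists (rows, ordered by median, with counts of calls beside each name and values beyond -2 or 3 drawn at the limit), with called genes in red or blue, others in grey and the median as a bar. The classical E2 targets stand to the right with a median of 0.81. The interferon-stimulated list (-0.29) and the MAPK feedback list (-0.28) stand to the left.

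Long noncoding RNAs made up 3.96% of the genes called up that matched GENCODE (30 of 757), 1.48% of those called down (10 of 677) and 5.90% of all tested. Of 210 tested genes with LINC symbols, 11 rose and 3 fell, and fewer rose without the first 2 h library. The share that rose was 5.24%, near the 4.9% of all genes tested. Calls in either direction made up 6.67%, against 9.3% of all genes tested. LINC00565 rose from 0.540 and 0.970 CPM in vehicle to 2.62 and 3.28 CPM with E2 (log2 change 1.97, SE 0.25, adjusted p = 2.04e-05). LINC01588 stood at 3.26 and 2.42 CPM in vehicle and 6.29 and 6.52 CPM with E2 (log2 change 1.17, SE 0.15, adjusted p = 3.6e-05). LINC01426, on chromosome 21 next to RUNX1, had 0 counts in both vehicle libraries and 12 and 7 with E2, at least 2.99-fold higher with the vehicle level set to 3 counts per library, and it lost its call in 3 of the fits that left out a library. LINC00657, the abundant NORAD, rose by 0.14, and LINC01001, LINC01468 and LINC01578 fell by 0.95, 0.94 and 0.26, with 0 falls without the first 2 h library.

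The later libraries show what became of these first changes, as a description, since 4 h and 8 h share the vehicle libraries with 2 h. CXCL12 was higher still, at 222 and 226 CPM after 4 h and 309.7 and 316 CPM after 8 h. STC2 likewise stood at 522 and 559 CPM after 4 h and 715 and 732 CPM after 8 h. MYC and PGR stayed near their 2 h level, with MYC at 29.03 and 30.2 CPM after 4 h and 31.8 and 35.2 CPM after 8 h and PGR at 1258 and 1239.7 CPM after 4 h and 1309 and 1426 CPM after 8 h. Others had their highest level at 2 h: RNF223 stood at 10.9 and 11.3 CPM after 4 h and 10.4 and 10.9 CPM after 8 h, ARC at 0.778 and 1.48 CPM after 4 h and 0.700 and 1.86 CPM after 8 h, and XBP1 at 1009 and 982 CPM after 4 h and 1062 and 1071 CPM after 8 h. Among genes that fell, NR2F1 stayed low at 11.1 and 11.6 CPM after 4 h and 12.7 and 10.5 CPM after 8 h, ARID5B came back in part to 116 and 112 CPM after 4 h and 95.8 and 103 CPM after 8 h, DUSP5 stood at 12.3 and 11.5 CPM after 4 h and 14.6 and 14.2 CPM after 8 h, and FOXA1 returned near its vehicle level at 378 and 370.5 CPM after 4 h and 372 and 400.5 CPM after 8 h. ERBB2, which fell little at 2 h, stood at 494 and 497 CPM after 4 h and 369 and 355 CPM after 8 h.

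**Figure D5:**
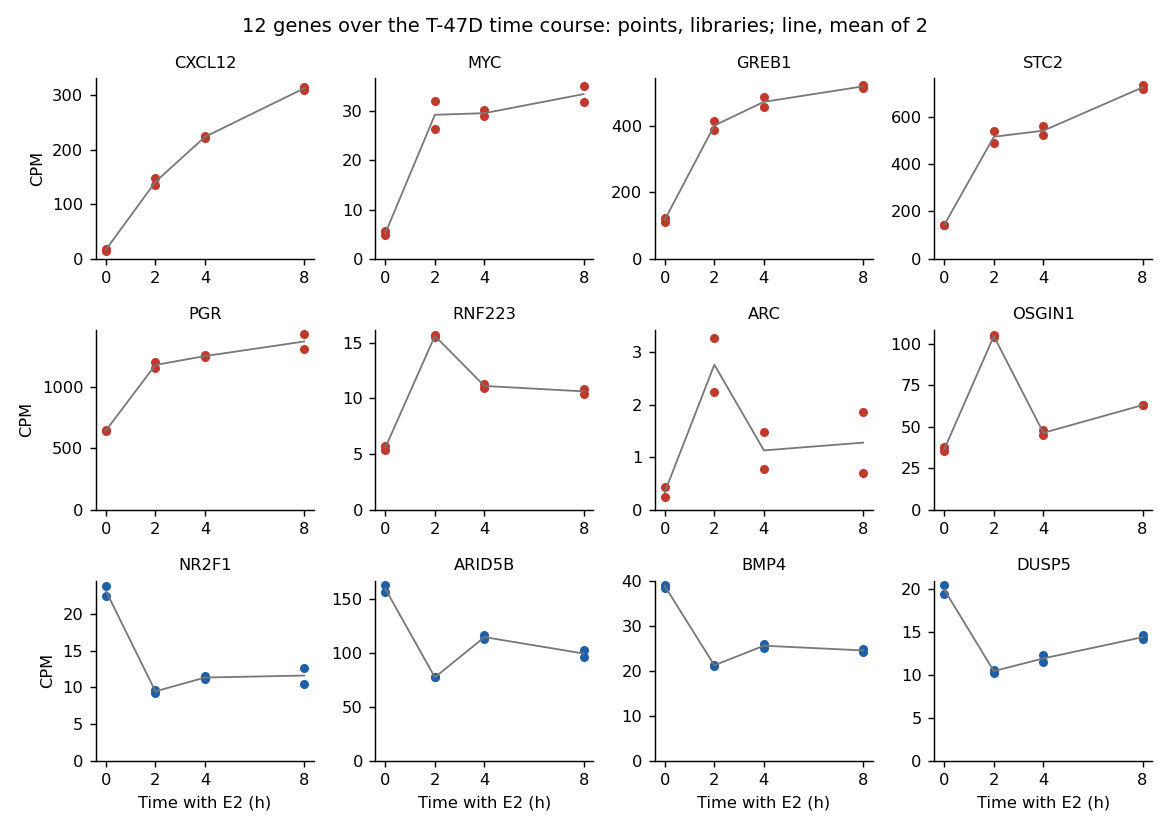
Levels in CPM (y axis, from 0) of 12 genes over hours with E2 (x axis) in T-47D cells, with a point per library and a line through the means of 2. CXCL12 and STC2 climb to 8 h, ARC, RNF223 and OSGIN1 peak at 2 h, and BMP4 and NR2F1 stay low after 2 h.

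The 30 genes with the largest changes were compared with Ishikawa endometrial cells treated in the same way, by edgeR's test of the difference between the 2 h responses over all 16 libraries. Of 17090 genes tested in that fit, 457 differed (2.67%), and of the 30 genes, 17 did, 11 of them genes that rose in T-47D cells and 6 that fell. The 30 were chosen by the size of their change in T-47D cells, which enters the difference, so the share that differed is given with nothing read from it. In the endometrial line KCNK5 stood at 13.4 and 13.9 CPM in vehicle and 14.6 and 14.7 CPM with E2, so that its vehicle level there was near the E2 level of T-47D cells. MYC stood at 116 and 119.6 CPM and then 131 and 130.9 CPM there, with a log2 fold change of 0.14 against 2.51 in T-47D cells. RASGRP1 rose in both lines, by 1.11 in the endometrial line and 3.86 in the breast line. In contrast, ZNF608 fell by 1.15 in the endometrial line and 1.22 in the breast line in this fit, with a difference of -0.08 (standard error 0.13, adjusted p = 0.987), and ARID5B fell by more in Ishikawa cells (-1.65 against -1.03). CXCL12, XAGE2 and CCL2 had 0 counts in all 4 Ishikawa libraries of 0 h and 2 h, so no difference could be estimated. The lines also differ in culture and origin, and which of these lies behind a difference was not tested.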

How the data were processed

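Poly(A) RNA was made into directional bulk RNA-seq libraries. HISAT2 was used for alignment to hg19, SAMtools for file handling and featureCounts for assignment to the UCSC gene set, and the counts were deposited by the authors without normalization, with a table for each line. Tool versions, strand setting and treatment of read pairs are not given in the sources used here. Even numbers made up 71.2% to 74.6% of the T-47D counts from 1 to 10, so 1 fragment may have given 2 counts. The counting intervals of LINC01016, EGR3, KRT13 and GATA4 treat counts as independent and would then be too narrow. Even without such doubling they cover counting error only.

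The analysis used edgeR 4.0.16 under R 4.3.3. Genes were filtered by filterByExpr, libraries scaled by TMM (factors 0.992 to 1.01), and the 8 T-47D libraries, which held 41223813 to 64148903 counts, fitted with time as a factor, so that all time points shared 1 estimate of the spread (biological coefficient of variation 5.02%). The contrast of 2 h against 0 h was tested with the quasi-likelihood F-test and Benjamini-Hochberg adjustment over all genes tested, and called below 0.05. Standard errors are the log2 fold change over the square root of F. CPM was computed on the TMM-scaled sizes. The difference between T-47D and Ishikawa cells was tested as an interaction over 16 libraries. For genes with up to 5 counts in each 0 h library, ratios of summed levels carry exact 95% counting intervals, which treat counts as independent. A gene at 0 in both 0 h libraries was set to a floor of 3 counts per library. Scripts were tested on simulated data.

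Genes are named by rule: the 15 with the largest change per direction among called genes averaging at least 50 counts whose groups do not overlap, the 10 with the smallest p per direction, members of 39 gene lists, called genes with the response element in their promoter, LINC symbols, and TGFA, PEG10 and PGR. Not every gene selected is printed, some are not reported here, and genes with an element within 5 kb and those with 0 or few counts at 0 h that fall outside these rules were chosen after their values were seen. Members and lists were chosen with earlier results of these data known. Symbols matched GENCODE v44 on GRCh37 for 90.47% of 26364 genes, 22494 directly and 1358 through an older symbol in RefSeq.

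Alternatives were DESeq2 1.42.0, RLE scaling, testing all genes, a minimum of 10 counts in each library, a replicate block, only the 0 h and 2 h libraries, counts divided by 2, genes of the major histocompatibility complex and pseudoautosomal regions left out, other thresholds, and each library left out in turn. Replicates differed by more than sampling noise at every time point (chi-square per gene 4.26 to 7.71), so none was merged.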

Additional observations from a re-analysis of the deposited data

Results flagged for a closer look

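In 17 of 30 genes chosen for the largest changes in T-47D cells, a choice that itself favours a difference, the 2 h response differed between T-47D and Ishikawa cells by edgeR's test of the difference itself, given here as T-47D minus Ishikawa on the log2 scale, with 2 libraries per group. The difference was positive for KCNK5 (4.82), ADRA2A (3.72), TGM2 (3.71), NXPH3 (3.02), PLCL1 (3.00), RASGRP1 (2.76), MYC (2.37), ARC (2.28), LINC00673 (2.14), MYB (2.02) and CECR6 (1.97). Of these 11, RASGRP1, CECR6 and MYB also rose in Ishikawa cells (1.11, 1.10 and 0.47), and the log2 fold changes of the others there, which did not pass, lay between -0.29 (ADRA2A) and 0.75 (ARC). The difference was negative for TWIST1 (-1.18), NR2F1 (-1.13), IRF1 (-1.10) and EGLN3 (-1.08), whose log2 fold changes in Ishikawa cells lay between -0.15 and 0.11 and did not pass, and for SHISA2 (-2.48), which in Ishikawa cells was at 0.0869 and 0.172 CPM in vehicle and 0.496 and 0.256 CPM with E2. ARID5B differed by 0.61, as it fell by more in Ishikawa cells. Adjusted p lay between 3.85e-11 (KCNK5) and 0.0375 (ARC), and none of the 17 calls was lost with RLE scaling, the replicate block or only 0 h and 2 h fitted. ADRA2A and PLCL1 were below 0.4 CPM in all Ishikawa libraries compared. TGM2 stood at 68.5 and 75.9 CPM and LINC00673 at 32.3 and 31.7 CPM in vehicle-treated Ishikawa cells, each far above its vehicle level in T-47D cells. What lies behind these differences was not tested.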

How the results depend on the processing

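The 1450 calls (764 up, 686 down) became 1464 with DESeq2, 1451 with RLE scaling, 1952 with no filter, 1441 with at least 10 counts in every library, 1756 with only 0 h and 2 h fitted, 1424 with counts divided by 2 and 1554 without genes of the histocompatibility complex and pseudoautosomal regions, and between 1341 and 1439 of the calls were shared with these fits other than the filter, scaling and 2-time-point fits, which shared 1423, 1418 and 1418. An adjusted p of 0.01 left 901 (496 up, 405 down), 0.1 gave 2122 with 1041 down, and a log2 fold change beyond 0.5 left 458 (295 up, 163 down), by construction. With each library left out in turn, totals ranged from 816 to 1798, up calls from 470 to 1031 and down calls from 310 to 767, with the lowest totals without a 2 h library. Libraries with the same replicate number showed little shared deviation, with correlations between -0.0547 and 0.0595. Whether their cultures were paired is not known from these values. The replicate block gave 1324 calls (693 up, 631 down).

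Of 192 called genes named, 139 lost their call in none of these fits, although for EGR3 and MAPT-AS1, 2 of the 139, DESeq2 gave no adjusted p. The direction changed for 2 genes that were not called: with a library left out, TFF3 ranged from -0.048 (0 h replicate 2) to 0.21, and PEG10 from -0.080 to 0.084 (0 h replicate 1), with 0.022 for 2 h replicate 2. Leaving out 0 h replicate 1 or 2 lost 23 and 32 calls, and 2 h replicate 1 or 2 lost 36 and 39. The 12 lost in all 4 of these fits were ACVR1B, CDKN2A, CYP51A1, EGR1, HMGCS1, IGFBP2, LINC01468, MAFF, NF1, SOCS1, TOB2P1 and UBTF. The others lost in at least 1 fit without a library were B3GNT6, BIK, C6orf48, CCL2, CDC25A, CTSD, CXCR4, DDX58, DHRS3, DKK1, DUSP1, EHF, ERRFI1, ESR1, GATA3, GNL1, HSPD1, IDI1, IER3, IGFBP5, IL17RB, IRF1, IRS2, KRT23, KRT7, LINC00657, LINC01001, LINC01426, LINC01578, MAX, NCL, RASA3, SMTNL2, SOCS4, SPDEF, SPRED2, SPRY1, SREBF1, ZNF669 and ZNRF3. DESeq2 and the replicate block each lost 6, and DESeq2 gave no adjusted p for 6 of the 192 genes. The 17 differences between the lines stayed at 17 in the 3 other fits. For genes with next to no counts at 0 h, the depth limits the size of the change that can be stated.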

Other observations

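A few genes had no or next to no counts in vehicle-treated T-47D cells and were measured with E2. Of them, 4 are named here after their values were seen. SMTNL2, B3GNT6, MAPT-AS1 and the LINC01426 named above had 0 counts in both 0 h libraries. They passed the filter on low counts through E2 libraries alone. That filter favours a rise, so their calls are no independent support. SMTNL2, a smoothelin-like protein, had 0 counts in both 0 h libraries and, with E2, 10 and 19, at least 4.57-fold higher with the vehicle level set to 3 counts per library. B3GNT6, a glycosyltransferase of mucin-type glycans, had 10 and 16 counts at 2 h, at least 4.10-fold higher. MAPT-AS1, antisense to the tau gene MAPT, had 12 and 12 counts at 2 h, at least 3.78-fold higher, and MAPT itself rose from 1601 and 1333 counts to 2054 and 2087 (log2 fold change 0.42, adjusted p = 0.000818). GATA4, a transcription factor of heart and endoderm, had 4 and 0 counts in vehicle and 85 and 65 with E2, a ratio of 35.4 with an exact 95% counting interval of 13.6 to 132. SMTNL2 and B3GNT6 lost their call in fits that left out a library.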
